A study of Mus musculus with 6 samples.

Results

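The nuclear genes for subunits of the mitochondrial respiratory chain and ATP synthase were examined in mouse left ventricles after myocardial infarction. They were chosen by symbol from the 17556 genes listed: all symbols that begin with Nduf and a subunit letter and number, *Sdha* to *Sdhd*, symbols that begin with Uqcr, *Cyc1*, *Cycs*, Cox4 to Cox8, and Atp5, without pseudogenes and assembly factors of the Ndufaf series. This gave 88 genes: 40 of complex I, 4 of complex II, 9 of complex III, 17 of complex IV, 17 of complex V (ATP synthase) and cytochrome c. The choice was by name, so it takes in paralogs whose product is not a standard subunit, such as *Ndufa4l2*, and *Atp5s*, which is not a subunit of the enzyme. *Ndufa4* is named for complex I, although its protein is now placed with complex IV.

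RNAseq was done on 6 left ventricle samples, 3 from Cre positive and 3 from Cre negative mice of the same crosses. Mice in both groups carried floxed alleles, both of Yap and 1 of Wwtr1, and were aged 6 to 10 weeks. Cre positive mice carried MerCreMer, a Cre activated by tamoxifen, on 1 allele behind the periostin gene's own promoter, and Cre negative mice had wildtype Periostin. All had the left anterior descending artery permanently ligated, received tamoxifen citrate in the diet from surgery onwards, and were examined at 4 days post injury. Periostin is made by myofibroblasts and not by adult cardiomyocytes, so the cells that hold most of the heart's mitochondria are not those in which this Cre is meant to act. Libraries held 13177888 to 14827579 estimated counts. No group without tamoxifen or without injury was analysed here, so each comparison below is between 2 injured groups that both received tamoxifen.

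Complex I takes electrons from NADH and complex II takes them from succinate. Complex III passes them to cytochrome c, and complex IV hands them to oxygen. Complexes I, III and IV pump protons across the inner mitochondrial membrane, and ATP synthase lets the protons return and makes ATP. Cardiomyocytes are packed with mitochondria, and some subunits of complex IV exist there as a heart and skeletal muscle form in place of the form found in most tissues.

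Library Cre negative 1 stood apart from the others. It differed from the other 5 libraries by 42.5 to 65.6 times sampling noise (chi-square per gene), against 7.86 to 16.5 for all pairs without it. It was the highest of the 6 ventricles for 83 of the 85 subunit genes that could be tested. *Ndufa4l2* was highest in Cre negative 2 and *Cox4i2* in Cre positive 3. The main results are therefore given with and without this ventricle. The 6 neutrophil markers summed to 415 TPM (transcripts per 1000000) in it, against 48 to 156 TPM in the others. Most of this was *S100a8* and *S100a9* at 152 and 203 TPM, while *Csf3r* was lowest in this library. The brown fat markers *Ucp1* and *Cidea* summed to 80 TPM in it against 33 to 42 in the others, the 4 smooth muscle markers to 377 against 767 to 985 and the 7 macrophage markers to 2386 against 3242 to 3902. The part of these cells in its high subunit levels was not tested. Summed counts of the Y-linked genes *Ddx3y*, *Eif2s3y*, *Kdm5d* and *Uty* were 16 in Cre negative 2 and 12 in Cre positive 2, and 1592 to 2034 in the other 4 ventricles, so each genotype held 1 ventricle of this kind.

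The genes targeted by Cre did not separate the genotypes in whole ventricles. Normalized counts (counts scaled by edgeR's TMM factors to a common library size) of *Yap1* were 1548, 1474 and 1420 in Cre negative replicates 1 to 3 and 1616, 1437 and 1475 in Cre positive replicates 1 to 3 (log2 fold change 0.03, SE 0.09). For *Wwtr1* they were 1617, 1464 and 1605 without Cre and 1615, 1560 and 1662 with it (0.05, SE 0.08). These counts cover all cells of the ventricle, so they do not check deletion in myofibroblasts. *Postn*, the gene that carries MerCreMer, had 12165, 24655 and 26879 normalized counts without Cre and 12690, 14249 and 13495 with it (log2 fold change −0.66, SE 0.27, edgeR adjusted p = 0.714). Without Cre negative 1 its groups did not overlap and it passed the test (−0.94, SE 0.08, edgeR adjusted p = 0.0182), as 1 of 2 genes called in that comparison.

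Subunit genes of every complex were lower in Cre positive than in Cre negative ventricles, and no single gene passed the test. All 85 tested genes had a log2 fold change (Cre positive over Cre negative) below 0, against 48.8% of the 13817 genes tested, and on the TPM scale, where the median of all genes was 0.11, 82 of 86 were below 0. The median log2 fold change was −0.33, or 0.798 of the Cre negative level, and the median of all tested genes was 0.01. With edgeR's quasi-likelihood test none of the 85 had an adjusted p under 0.05, and their lowest adjusted p was 0.714, a value that 76 of them shared. Of all genes 1 (0.00724%) was called, and it was not a subunit gene. At an unadjusted p under 0.05, 37 of 85 (43.5%) were lower and none was higher, against 2.98% lower among all genes tested. This count was 3 without Cre positive 2, 10 without Cre positive 3 and 12 without Cre positive 1. DESeq2 called 0 of them after adjustment and had 51 at an unadjusted p under 0.05, and limma on log2(TPM + 1) called 0 and had 6. The 3 genes that were not tested for low counts are given with their complexes.

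In 59 of the 85 genes (69.4%) all 3 Cre positive ventricles lay below all 3 Cre negative ventricles, which held for 6.85% of all genes tested. Relative to each gene's mean over the 6 ventricles, the median subunit gene stood at 0.46, 0.00 and 0.02 (log2) in Cre negative replicates 1 to 3. It stood at −0.08, −0.23 and −0.15 in Cre positive replicates 1 to 3. The gap between Cre negative 1 and the other 2 Cre negative ventricles was thus larger than the gap between those 2 and the Cre positive ventricles. Cre positive 2 was the lowest ventricle for 63 genes, Cre positive 3 for 16, Cre positive 1 for 5 and Cre negative 3 for 1.

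**Figure D1:**
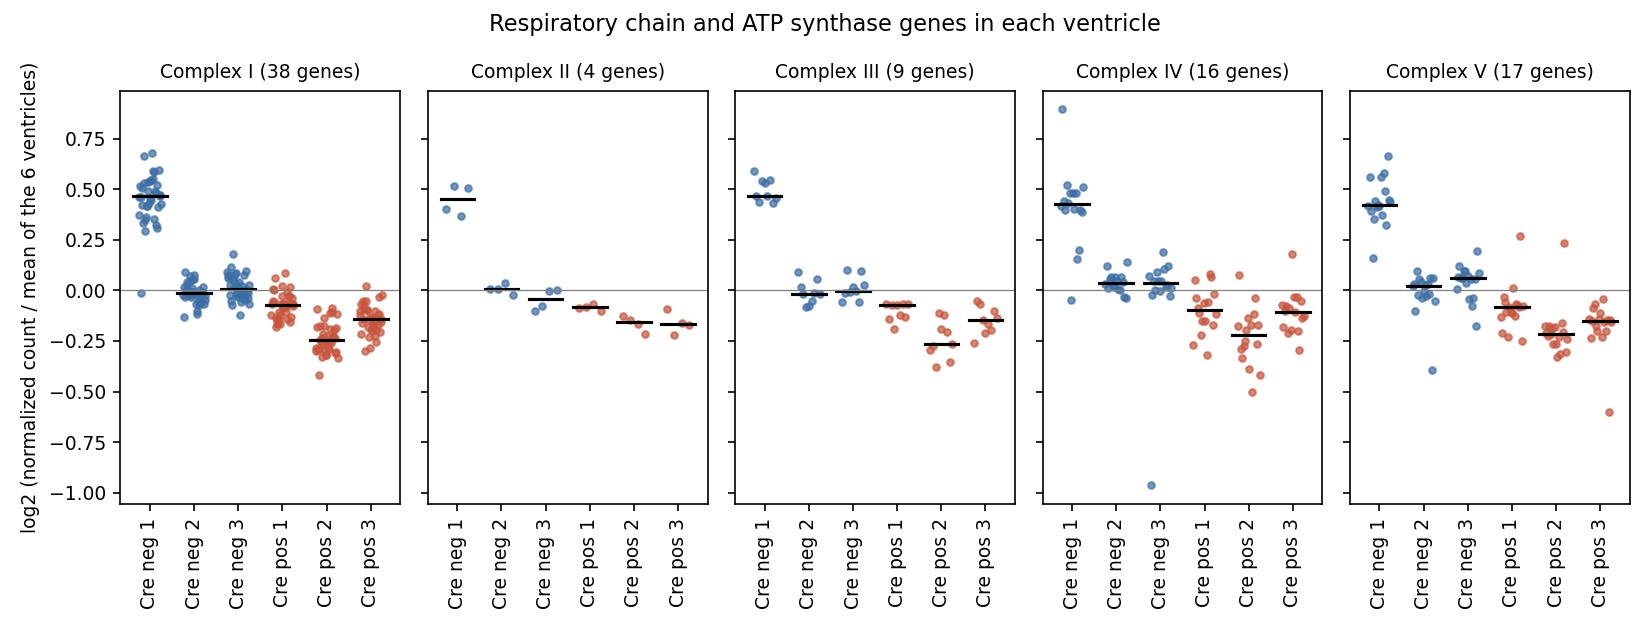
Each point is 1 of the tested subunit genes in 1 ventricle, and the y axis is log2 of its normalized count over its mean in the 6 ventricles. Black bars are medians, blue is Cre negative and red is Cre positive, and cytochrome c is not drawn. Cre negative 1 stands highest in every complex, and over the 85 genes the medians are 0.46 there and −0.23 in Cre positive 2.

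Without Cre negative 1 the direction stayed and the size was smaller. The median log2 fold change was −0.16 (0.895 of the Cre negative level) against 0.00 for all genes, and 82 of 85 genes were lower, against 6996 of all 13995 genes. The exceptions were *Cycs*, *Cox6b2* and *Atp5e*. At an unadjusted p under 0.05 in edgeR, 24 of 85 (28.2%) were lower, against 3.01% of all genes, and none had an adjusted p under 0.05. In 60 of 85 genes (70.6%) the 3 Cre positive ventricles lay below the other 2 Cre negative ones, against 11.8% of all genes. Replicates 2, with few Y-linked counts, gave 1 ventricle of each genotype. Between these, 83 of 85 genes were lower with Cre, with a median log2 difference of −0.22. Among the other 4 ventricles, Cre negative 1 included, 84 were lower with a median of −0.36. With Cre negative 1 left out of them 77 were lower with a median of −0.14. Subunit genes moved together from ventricle to ventricle, so the counts of genes given here and above are not counts of independent replicates.

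**Figure D2:**
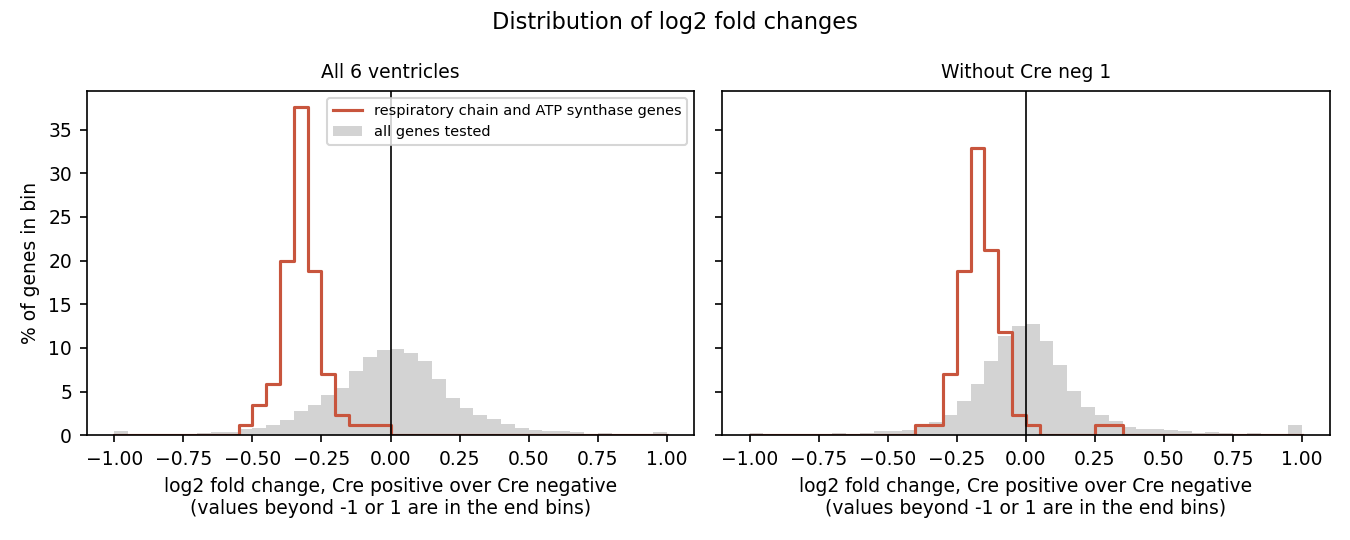
The x axis is the edgeR log2 fold change and the y axis is the percentage of genes in each bin, for all genes tested (grey) and for the 85 subunit genes (red line), with all 6 ventricles and without Cre negative 1. The red distribution is narrow and lies left of 0, with medians of −0.33 and −0.16.

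These genes made up a large part of the ventricles' RNA. On the TPM scale, which is per transcript length and so compares levels between genes, the 88 genes summed to 97341, 79494 and 81057 TPM in Cre negative replicates 1 to 3. They summed to 74809, 72444 and 76214 TPM in Cre positive replicates 1 to 3. The groups did not overlap. The sum was 7.24% to 7.62% of all TPM with Cre and 7.95% to 9.73% without it. Of the 100 genes with the highest mean TPM 17 were subunit genes, and of the first 500, 74 were.

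Cardiomyocyte markers moved with the subunit genes. The 10 markers (*Myh6*, *Tnnt2*, *Tnni3*, *Actc1*, *Myl2*, *Myl3*, *Ryr2*, *Pln*, *Mybpc3* and *Ttn*) were all lower with Cre, with a median log2 fold change of −0.31, 2 at an unadjusted p under 0.05 in edgeR and none after adjustment. Their summed level was 65373, 55303 and 55897 TPM without Cre and 50200, 49847 and 53576 TPM with it. Without Cre negative 1, 8 of 10 were lower and the median was −0.12. The summed subunit TPM over the summed marker TPM was 1.49, 1.44 and 1.45 without Cre and 1.49, 1.45 and 1.42 with it. The mean ratio was 1.46 ± 0.0269 without Cre and 1.46 ± 0.0339 with it (SD, n = 3 in each), so that relative to these markers the groups overlapped. In a whole ventricle, fewer cells of a type and less RNA per cell cannot be told apart. Fibroblast markers went the other way, with 6 of 7 higher and a median of 0.12, their sums being 4501 to 7248 TPM without Cre and 7245 to 8323 TPM with it. *Col1a1*, a chain of fibrillar collagen, had 1549, 2707 and 2435 TPM without Cre and 3260, 2759 and 3154 TPM with it. Smooth muscle markers were higher in 4 of 4 (median 0.37, 0.10 without Cre negative 1) and endothelial markers in 5 of 6 (median 0.05, 0.01 without it). Without that ventricle 2 of the 7 fibroblast markers were lower (*Lum* at −0.05 and *Tcf21* at −0.12), the median was again 0.12 and *Col1a1* was at 0.18 against 0.36 with all ventricles. Macrophage markers were lower in 3 of 7 with all ventricles (median 0.07) and in 6 of 7 without Cre negative 1 (median −0.15). Without it 2 (28.6%, against 3.01% of all genes) were at an unadjusted p under 0.05 in edgeR, *Cd68* at −0.34 (SE 0.09) and *C1qa* at −0.29 (SE 0.12). *Cnn1*, a smooth muscle calponin, was at 0.61 (SE 0.22), the 1 fibroblast, smooth muscle or endothelial marker at an unadjusted p under 0.05 in edgeR with all ventricles. The part of these markers in the lower subunit levels was not tested.

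**Figure D3:**
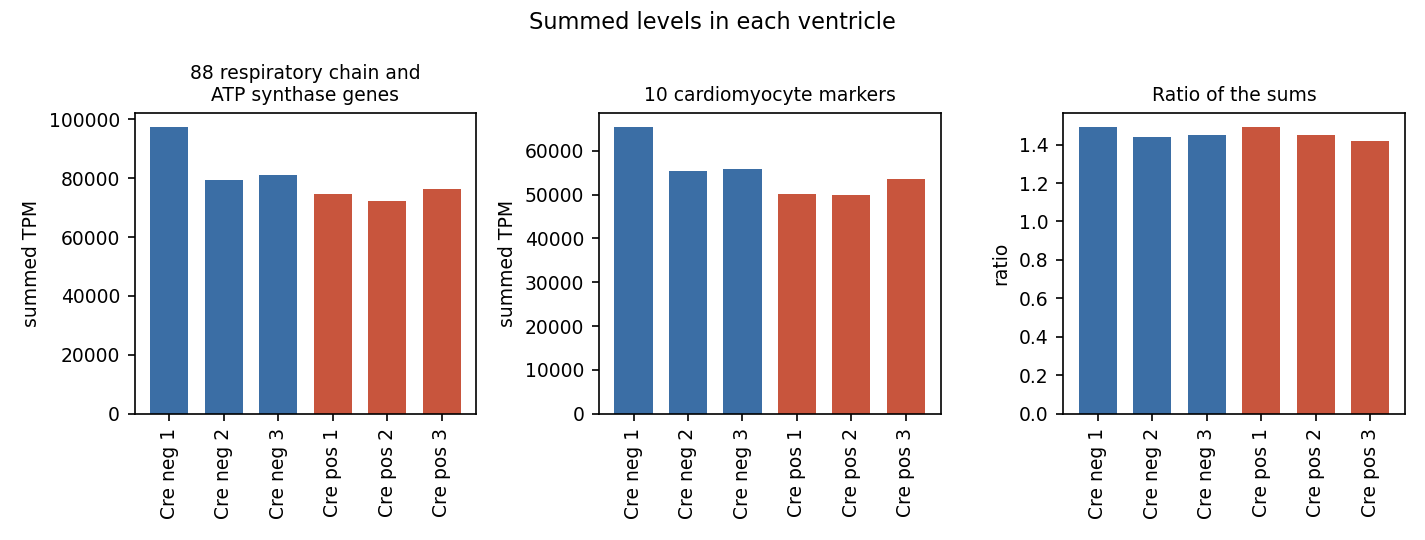
Bars are single ventricles (blue Cre negative, red Cre positive), and show the summed TPM of the 88 subunit genes, the summed TPM of 10 cardiomyocyte markers and the ratio of these sums. The sums are lower in the 3 Cre positive ventricles, and the ratio lies between 1.42 and 1.49 in all 6.

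By complex the medians were all negative, with and without Cre negative 1. The median log2 fold change was −0.32 for complex I, −0.30 for complex II, −0.34 for complex III, −0.34 for complex IV and −0.31 for complex V. Without Cre negative 1 these were −0.16, −0.13, −0.16, −0.22 and −0.17. Summed levels over the cardiomyocyte marker sum differed between groups by 0.01, 0.04, −0.01, −0.03 and 0.00 (log2) for complexes I to V. Differences between complexes were not tested.

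**Figure D4:**
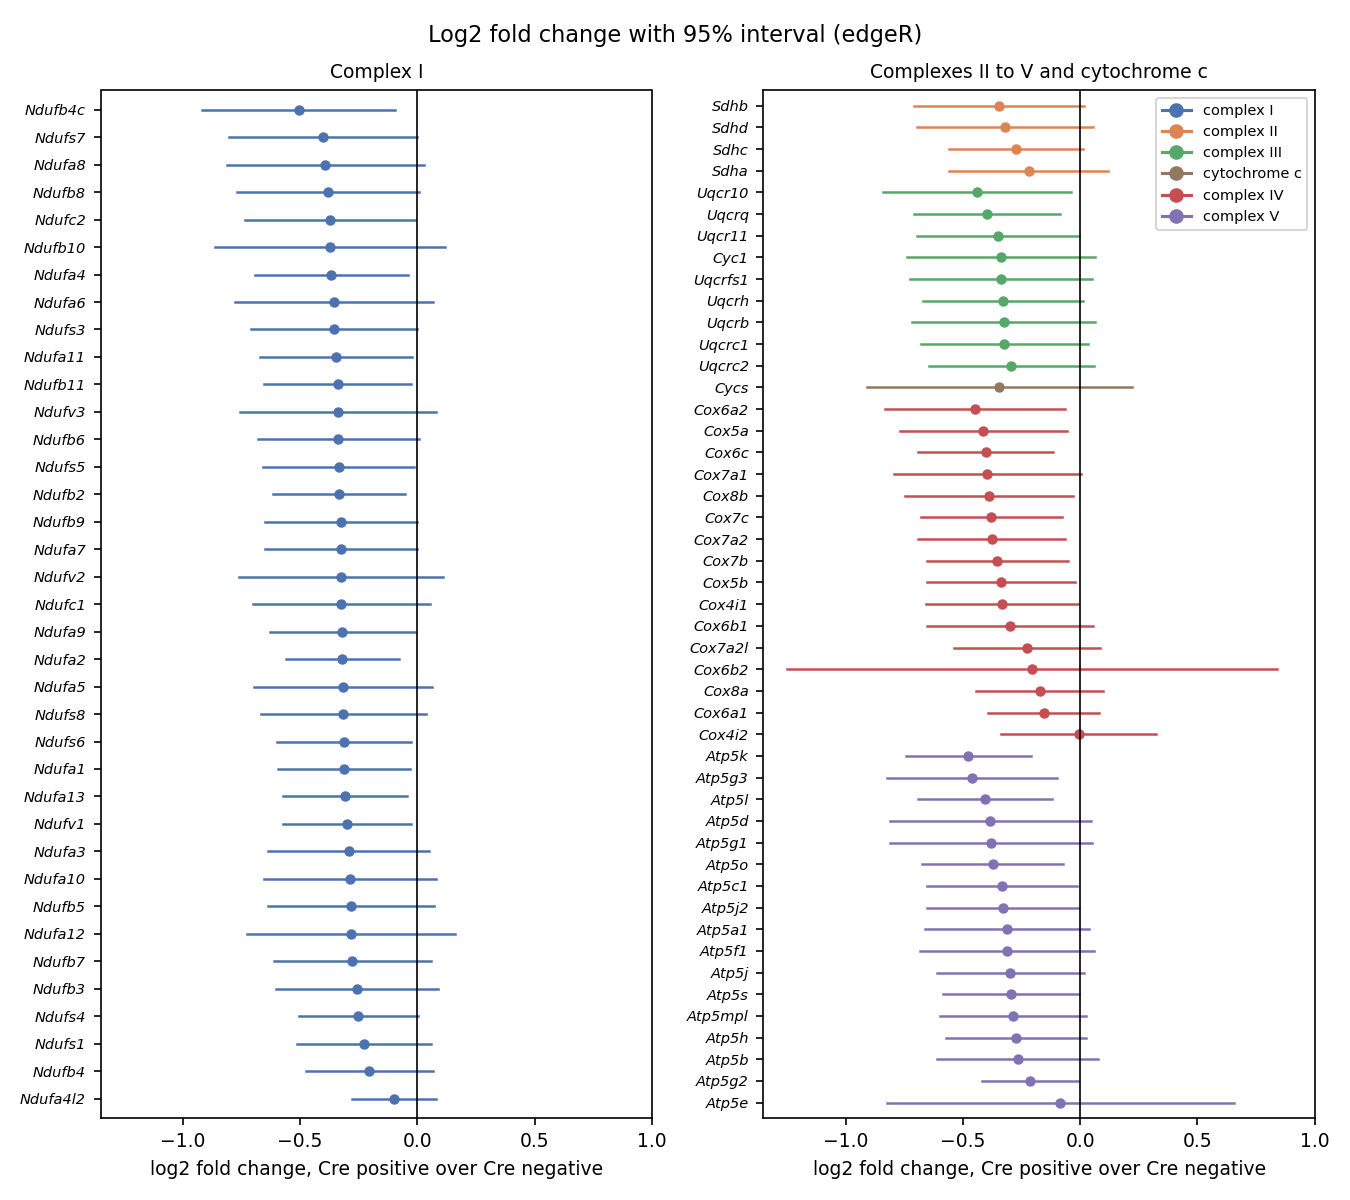
Points are log2 fold changes (Cre positive over Cre negative) of 84 of the 85 tested genes with 95% intervals from edgeR, sorted within each complex. All points lie below 0, from −0.51 (*Ndufb4c*) to −0.01 (*Cox4i2*), and 37 intervals lie wholly below 0.

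The promoters of several of these genes carry short motifs of factors known to drive respiratory chain genes, and the stretches that hold them are shown since the genes moved together. Windows of 250 bases before to 50 bases after the transcription start (RefSeq, GRCm38.p6) were found for 70 of the 88 genes, 75 windows in all. They were searched on both strands for the letters of NRF1 (GCGCATGC), an ETS motif bound by GABPA (CCGGAAG), an estrogen-related receptor motif (TCAAGGTCA, ERR), YY1 (AAGATGGC) and the cyclic AMP response element (TGACGTCA, CRE). The NRF1 motif was in 14.7% of these windows and in 2.71% of all 32851 windows, and among windows of tested genes in 4.72%. The ETS motif was in 21.3% against 8.86% and 15.9%, ERR in 2.67% against 0.423% and 0.264%, YY1 in 13.3% against 2.75% and 3.99%, and CRE in 6.67% against 1.79% and 2.81%. Windows with YY1 numbered 7 in complex I, 3 in complex V and 0 in complex IV. In 40 of 75 windows none of these letters was found. The median log2 fold change was −0.32 for the 35 genes with a motif and −0.34 for the 33 tested genes with none. A match describes the letters only, and binding was not measured. A link between the motifs and the levels was not tested.

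The stretches below are given 5′ to 3′ on the strand of the gene, with motif matches in capitals. *Cycs* (chr6:50566592-50566768, minus strand) holds a CRE motif at 169 and NRF1 letters at 60 bases before its start. *Atp5k* (chr5:108434410-108434479, minus strand), the gene with the smallest p, holds NRF1 letters that read the same on both strands at 50 bases. *Sdhb* (chr4:140961187-140961254, plus strand) holds NRF1 letters at 54 bases and *Atp5g3* (chr2:73911340-73911408, minus strand) ERR letters at 52 bases. *Cox6a1* (chr5:115348959-115349150, minus strand), the form of its subunit found in most tissues, holds NRF1 letters at 162 and ETS letters at 16 bases. The muscle forms *Cox7a1* (chr7:30184071-30184170, plus strand) and *Cox8b* (chr7:140900447-140900546, minus strand) hold none of the motifs in the window, and the last 100 bases before their starts are shown. Of their counterparts, *Cox7a2* also holds none and *Cox8a* holds ETS letters, and no window was found for *Cox6a2*. In complex IV 10 of 13 windows hold none, so these examples do not set muscle forms apart.
Cycs: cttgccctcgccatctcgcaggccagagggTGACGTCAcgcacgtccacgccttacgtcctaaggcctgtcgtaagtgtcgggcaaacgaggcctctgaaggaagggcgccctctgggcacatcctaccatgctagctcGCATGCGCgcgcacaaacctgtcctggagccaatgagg
Atp5k: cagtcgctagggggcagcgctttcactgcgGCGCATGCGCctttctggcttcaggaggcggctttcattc
Sdhb: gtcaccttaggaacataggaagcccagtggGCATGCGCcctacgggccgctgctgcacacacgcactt
Atp5g3: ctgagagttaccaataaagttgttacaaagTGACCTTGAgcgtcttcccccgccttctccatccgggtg
Cox6a1: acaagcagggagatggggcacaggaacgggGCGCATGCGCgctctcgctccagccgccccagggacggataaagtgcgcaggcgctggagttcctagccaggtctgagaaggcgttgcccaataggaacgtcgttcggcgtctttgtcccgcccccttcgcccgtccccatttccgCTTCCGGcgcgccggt
Cox7a1: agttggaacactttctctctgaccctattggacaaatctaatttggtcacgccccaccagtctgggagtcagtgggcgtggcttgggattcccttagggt
Cox8b: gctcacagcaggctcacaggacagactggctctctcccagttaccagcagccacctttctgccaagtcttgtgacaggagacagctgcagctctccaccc

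All 38 tested genes of complex I were lower with Cre. At an unadjusted p under 0.05 in edgeR 17 (44.7%) were lower, against 2.98% of all genes. Without Cre negative 1 this was 8 (21.1%), against 3.01% of all genes. In 24 genes (63.2%) the groups did not overlap with all ventricles, against 6.85% of all genes. The 7 core subunits, which hold the flavin and iron-sulfur clusters and the quinone site, had a median log2 fold change of −0.32, and −0.15 without Cre negative 1. *Ndufv1*, which binds the flavin that takes electrons from NADH, had 7494, 6097 and 6090 normalized counts without Cre and 5297, 5017 and 5678 with it, with no overlap. Its log2 fold change was −0.30 (SE 0.12, unadjusted p = 0.0359 in edgeR), and −0.20 without Cre negative 1. *Ndufs7*, an iron-sulfur subunit beside the quinone site, had the lowest value of the 7, at −0.40 (SE 0.17). Its normalized counts of 6232, 4514 and 4184 without Cre overlapped with 4350, 3434 and 3516 with it, and it was at −0.21 without Cre negative 1. *Ndufs1*, the largest core subunit, was closest to 0 of those named, at −0.23 (SE 0.12), and *Ndufs3*, *Ndufs8* and *Ndufv2* lay between −0.35 and −0.32. When Cre negative 1 was left out *Ndufs1* was at −0.10, *Ndufs3* at −0.18, *Ndufs8* at −0.15 and *Ndufv2*, then the closest to 0 of those named, at −0.07.

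The 28 accessory subunits of complex I, which surround the core, had a median of −0.32, and −0.16 without Cre negative 1. *Ndufb8*, a membrane arm subunit and the second highest gene of the complex at a mean of 1373 TPM, had 8958, 6089 and 6180 normalized counts without Cre and 5884, 5045 and 5373 with it. Its log2 fold change was −0.38 (SE 0.17), and −0.18 without Cre negative 1. *Ndufa2* had the smallest p of the accessory subunits, with 1555, 1257 and 1339 normalized counts without Cre and 1122, 1044 and 1159 with it (log2 fold change −0.32, SE 0.10, unadjusted p = 0.0158 in edgeR). Its groups did not overlap, and it was −0.23 without Cre negative 1.

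The genes at both ends of the range of complex I were paralogs. *Ndufb4c*, a copy of the accessory subunit gene *Ndufb4*, had 1082, 679 and 712 normalized counts without Cre and 617, 567 and 555 with it, a log2 fold change of −0.51 (SE 0.18, and −0.27 without Cre negative 1), while *Ndufb4* was at −0.20 (SE 0.12, and −0.10 without it). Estimated counts of both were not whole numbers, as happens when reads are shared between copies, so the split between them is uncertain. *Ndufa4l2*, a paralog of *Ndufa4* known to be induced by hypoxia, was at −0.10 (SE 0.08) with 694, 747 and 735 normalized counts without Cre and 704, 657 and 669 with it. It was the gene of complex I with the lowest mean level of those tested, at 102 TPM. *Ndufa4* itself was the highest at 1701 TPM and at −0.37 (SE 0.14), and −0.22 without Cre negative 1. *Ndufb4b* and *Ndufa11b* were too low to be tested: *Ndufb4b* had 0, 0 and 0.710 TPM without Cre and 0, 1.28 and 4.29 TPM with it, and *Ndufa11b* 0.1 TPM in Cre negative 3 and 0 elsewhere.

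Complex II, the only one encoded wholly in the nucleus and also an enzyme of the TCA cycle, was lower in all 4 genes, none of them at an unadjusted p under 0.05 in edgeR. *Sdhb*, the iron-sulfur subunit, had 10047, 6954 and 7077 normalized counts without Cre and 6591, 6077 and 6274 with it. Its groups did not overlap (log2 fold change −0.35, SE 0.16, and −0.16 without Cre negative 1). *Sdha*, the flavin subunit that oxidises succinate, overlapped, with 15108, 11491 and 10680 without Cre and 10781, 10495 and 10752 with it (−0.22, SE 0.15). The membrane anchors *Sdhc* and *Sdhd* were at −0.28 (SE 0.12) and −0.32 (SE 0.16), with no overlap. *Sdha*, *Sdhc* and *Sdhd* were at −0.06, −0.15 and −0.12 when Cre negative 1 was left out.

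In complex III the 9 genes spanned −0.44 to −0.29 and 8 (88.9%) did not overlap, against 6.85% of all genes. At an unadjusted p under 0.05 in edgeR 3 (33.3%) were lower, against 2.98% of all genes. These were small subunits without redox groups, *Uqcrq*, *Uqcr10* and *Uqcr11*. *Uqcrq*, which binds next to cytochrome b, had 6963, 5353 and 5513 normalized counts without Cre and 4706, 4032 and 4803 with it, at −0.40 (SE 0.13). *Uqcr10* was at −0.44 (SE 0.17) and *Uqcr11*, the highest of the complex by mean TPM, at −0.35 (SE 0.15). Another small subunit, *Uqcrb*, was at −0.33 (SE 0.17). The Rieske iron-sulfur protein *Uqcrfs1* was at −0.34 (SE 0.17), cytochrome c1 *Cyc1* at −0.34 (SE 0.17), and the core proteins *Uqcrc1* and *Uqcrc2* at −0.32 (SE 0.15) and −0.29 (SE 0.15). All 9 genes were still lower without Cre negative 1. Then 2 of them (22.2%, against 3.01% of all genes) were at an unadjusted p under 0.05 in edgeR, *Uqcrq* at −0.27 and *Uqcr10* at −0.23. The others then lay closer to 0, *Uqcr11* at −0.21, *Uqcrc1* at −0.16, *Uqcrfs1* at −0.13, *Cyc1* at −0.12, *Uqcrc2* at −0.11 and *Uqcrb* at −0.11.

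Cytochrome c, the soluble carrier between complexes III and IV, was lower with Cre only while Cre negative 1 was included. *Cycs* had 12210, 6825 and 6468 normalized counts without Cre and 7225, 6885 and 5959 with it. Its log2 fold change was −0.34 (SE 0.24) with all ventricles and 0.00 (SE 0.10) without Cre negative 1. Part of its reads was shared with other genes, since its estimated counts were not whole.

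Complex IV had the highest share of genes at an unadjusted p under 0.05 in edgeR among the complexes, 9 of 16 (56.2%, against 2.98% of all genes). Without Cre negative 1 it was 7 (43.8%, against 3.01% of all genes). In 11 genes (68.8%) the groups did not overlap with all ventricles, against 6.85% of all genes. *Cox6a2*, the heart and skeletal muscle form of subunit 6a, was the most abundant of all 88 genes and ranked 19 among all genes by mean TPM. It had 29361, 22699 and 20797 normalized counts without Cre and 19010, 15421 and 18899 with it, with no overlap. Its log2 fold change was −0.45 (SE 0.17, unadjusted p = 0.0272), and −0.30 (SE 0.11) without Cre negative 1. *Cox5a* and *Cox5b*, which sit next to the catalytic core, were at −0.41 (SE 0.15) and −0.34 (SE 0.14), and at −0.24 and −0.22 without Cre negative 1. *Cox6c* had 4701, 3575 and 4058 normalized counts without Cre and 2850, 3166 and 3309 with it, at −0.40 (SE 0.12, unadjusted p = 0.0124), and *Cox7c* was at −0.38 (SE 0.13). These were at −0.30 and −0.25 without Cre negative 1. *Cox5a*, *Cox5b*, *Cox6c*, *Cox7b* and *Cox7c*, which are in none of the pairs of forms compared here, were all at an unadjusted p under 0.05 (4 of 5 without Cre negative 1) and did not overlap.

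The muscle forms of complex IV subunits were *Cox6a2*, *Cox7a1* and *Cox8b*, at −0.45, −0.40 (SE 0.17) and −0.39 (SE 0.15). Their counterparts *Cox6a1*, *Cox7a2* and *Cox8a* were at −0.16 (SE 0.10), −0.38 (SE 0.14) and −0.17 (SE 0.12). With Cre negative 1 left out the muscle forms were at −0.30, −0.24 and −0.23, and their counterparts at −0.12, −0.22 and −0.12. *Cox6a1* had 674, 711 and 691 TPM without Cre and 726, 684 and 625 with it, where the groups overlapped. The ratio of *Cox6a2* to *Cox6a1* TPM was 8.63, 7.07 and 6.70 without Cre and 5.86, 5.45 and 7.08 with it. The mean difference in this log2 ratio, formed on TPM + 0.1, was −0.28 (exact two-sided permutation p = 0.3), and −0.18 without Cre negative 1. For *Cox8b* over *Cox8a* the ratio was 2.93, 2.42 and 2.45 without Cre and 2.09, 1.91 and 2.90 with it (difference −0.20, exact permutation p = 0.4). That difference was −0.11 without Cre negative 1, −0.07 without Cre positive 2 and −0.38 without Cre positive 3. For *Cox7a1* over *Cox7a2* the difference was −0.02 (exact permutation p = 1). With 3 against 3 ventricles this test cannot give a p under 0.1, and it was run for 5 pairs.

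Of the 5 pairs, only the ratio of *Cox4i2* to *Cox4i1* did not overlap between the genotypes. *Cox4i2* is the form of subunit 4 known for higher levels in lung and under hypoxia. *Cox4i2* had 23.3, 27.0 and 26.5 TPM without Cre and 26.1, 26.5 and 31.9 TPM with it, and its log2 fold change was −0.01 (SE 0.14). *Cox4i1*, the main form, had 2737, 2263 and 2535 TPM without Cre and 2081, 2103 and 2369 TPM with it. It was at −0.33 (SE 0.14), and −0.21 without Cre negative 1. The ratio of *Cox4i2* to *Cox4i1* was 0.00856, 0.0120 and 0.0105 without Cre and 0.0126, 0.0127 and 0.0135 with it, so the groups did not overlap. *Cox4i1* was near the complex IV median of −0.34, while *Cox4i2* itself changed little. Groups also did not overlap in 59 of the 85 subunit genes taken singly. The log2 ratio was higher by 0.33 (exact permutation p = 0.1, the smallest possible, adjusted over 5 pairs p = 0.5), and by 0.20 without Cre negative 1. *Cox6b2*, best known from testis, had 4.69 to 13.8 TPM against 2221 to 3011 TPM of *Cox6b1*, and their ratio differed by 0.16 (exact permutation p = 0.9). *Cox6b1* was at −0.30 (SE 0.15, and −0.14 without Cre negative 1), and *Cox6b2* at −0.21 (SE 0.45) and 0.31 without Cre negative 1. *Cox7b2* was not tested, with 0.290, 0.270 and 0 TPM without Cre and 0.280, 0 and 0 TPM with it.

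**Figure D5:**
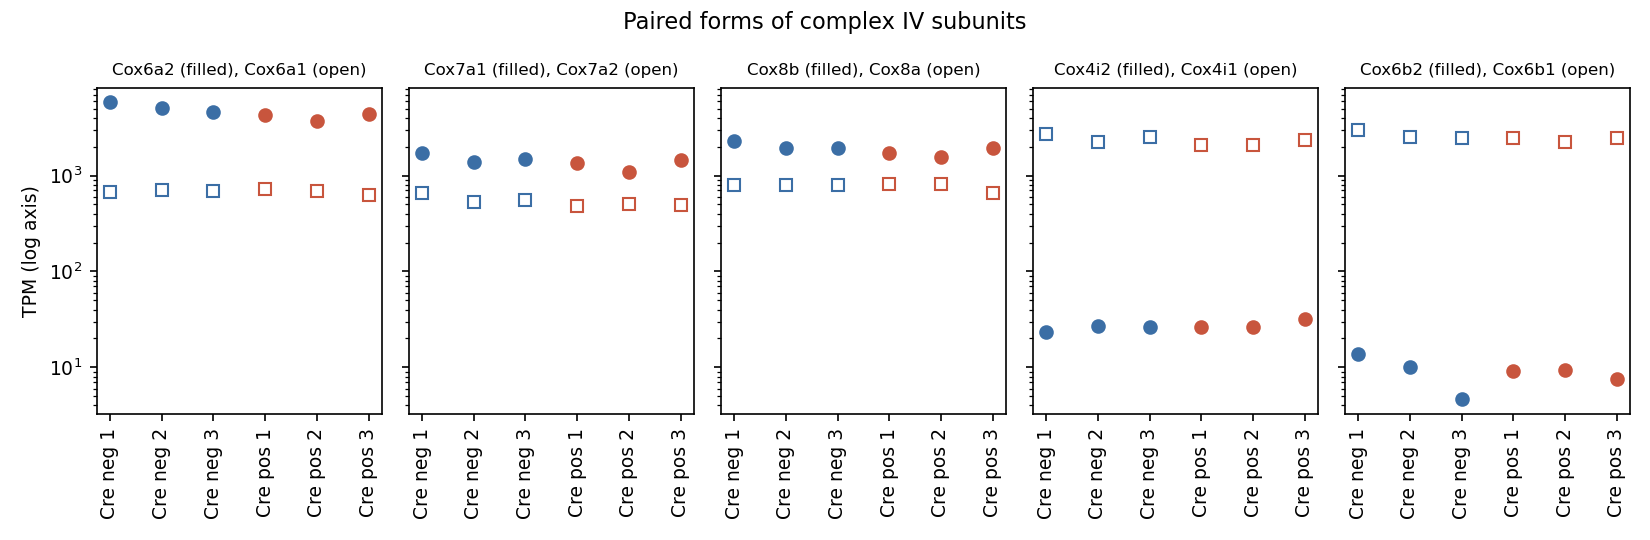
TPM on a log axis in each ventricle (blue Cre negative, red Cre positive) for 5 pairs of complex IV subunit forms, filled circles for the first gene and open squares for the second. *Cox6a2* is 5.45 to 8.63 times *Cox6a1*, and *Cox4i2* is 0.00856 to 0.0135 of *Cox4i1*.

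In complex V all 17 genes were lower. At an unadjusted p under 0.05 in edgeR 8 (47.1%) were lower, against 2.98% of all genes. Without Cre negative 1 this was 7 (41.2%), against 3.01% of all genes. *Atp5k*, subunit e of the membrane part that joins ATP synthase dimers, had the smallest p of all subunit genes. It had 1001, 767 and 840 normalized counts without Cre and 617, 594 and 662 with it, and every Cre positive ventricle lay below every Cre negative one. Its log2 fold change was −0.48 (SE 0.11, unadjusted p = 0.00342, adjusted p = 0.714 in edgeR), and −0.37 (SE 0.09) without Cre negative 1. *Atp5l*, subunit g and its partner in the dimer, had 6805, 5201 and 5348 normalized counts without Cre and 4274, 4397 and 4431 with it, at −0.41 (SE 0.12), with no overlap.

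The genes of F1, the catalytic head with the central stalk, lay between −0.38 and −0.27 except for *Atp5e*. *Atp5b*, the beta subunit where ATP is formed and the second most abundant of the 88 genes, had 68698, 53062 and 56096 normalized counts without Cre and 50056, 46348 and 51456 with it. It was at −0.27 (SE 0.15), and −0.15 without Cre negative 1. *Atp5a1*, the alpha subunit, was at −0.31 (SE 0.15), the gamma subunit *Atp5c1* at −0.33 (SE 0.14) and the delta subunit *Atp5d* at −0.38 (SE 0.19), and these 3 were at −0.17, −0.20 and −0.17 without Cre negative 1. *Atp5e*, the epsilon subunit, had 2298, 1107 and 1286 normalized counts without Cre and 1752, 1707 and 958 with it. Its ventricles did not follow genotype, since Cre negative 1, Cre positive 1 and Cre positive 2 were high and the other 3 low. Its log2 fold change was −0.09 (SE 0.32), and 0.30 (SE 0.23) without Cre negative 1.

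The 3 genes *Atp5g1*, *Atp5g2* and *Atp5g3* encode the same mature subunit c of the rotor ring, with different import sequences. *Atp5g3* had 16217, 11241 and 11519 normalized counts without Cre and 9488, 9486 and 9328 with it, with no overlap, at −0.46 (SE 0.16, unadjusted p = 0.0193 in edgeR). It was at −0.28 (SE 0.07) without Cre negative 1. *Atp5g1*, the highest of the 3 by TPM, was at −0.38 (SE 0.19, and −0.16 without Cre negative 1) and overlapped, and *Atp5g2* was at −0.21 (SE 0.09) with no overlap. *Atp5o*, the stalk subunit that confers sensitivity to oligomycin, was at −0.37 (SE 0.13), and −0.25 without Cre negative 1. Subunits encoded by mitochondrial DNA were not analysed here.

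Genes that work with the subunits were counted from lists. All 17 enzymes of the TCA cycle and pyruvate dehydrogenase were lower with Cre, against 48.8% of all genes tested. Their median log2 fold change was −0.30, and 2 (11.8%, against 2.98% of all genes) were lower at an unadjusted p under 0.05 in edgeR. Without Cre negative 1, 16 of 17 were lower and the median was −0.09. Of 47 tested assembly factors, which build the complexes, 46 were lower, with a median of −0.21 and 4 (8.51%, against 2.98% of all genes) at an unadjusted p under 0.05 in edgeR (*Cox17*, *Cox14*, *Uqcc2* and *Sdhaf1*). *Cox17*, the copper chaperone of complex IV, had 880, 625 and 627 normalized counts without Cre and 545, 542 and 485 with it (−0.44, SE 0.15, and −0.26 without Cre negative 1). Without Cre negative 1, 32 of 47 assembly factors (68.1%) were lower, against 6996 of 13995 genes, and the median was −0.06. Then 2 of them (4.26%) were lower at an unadjusted p under 0.05 in edgeR, near the 3.01% of all genes. None of the TCA cycle genes or assembly factors passed adjustment.

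All 10 genes of energy carriers and export were lower, with a median of −0.30, and −0.12 without Cre negative 1. *Slc25a4*, the ADP/ATP carrier of heart and muscle, was at −0.51 (SE 0.22), with 66190, 39778 and 39926 normalized counts without Cre and 35321, 32305 and 34817 with it, and at −0.23 (SE 0.08) without Cre negative 1. Of 16 regulators 12 were lower, against 48.8% of all genes tested. At an unadjusted p under 0.05 in edgeR 2 (12.5%) were lower, against 2.98% of all genes, and 1 was higher. *Ppargc1a*, a coactivator that drives mitochondrial biogenesis, had 1279, 825 and 880 normalized counts without Cre and 657, 728 and 827 with it (−0.43, SE 0.18). Its partner receptor *Esrra* was at −0.35 (SE 0.14). *Pprc1*, a related coactivator, was higher, with 602, 676 and 702 without Cre and 806, 871 and 767 with it (0.30, SE 0.09, unadjusted p = 0.0128 and adjusted p = 0.714 in edgeR). Of the factors whose motifs were searched, *Nrf1*, *Gabpa* and *Yy1* were at 0.18 (SE 0.11), 0.00 (SE 0.10) and 0.12 (SE 0.11), and the receptors of the ERR motif, *Esrra*, *Esrrb* and *Esrrg*, at −0.35, −0.32 and −0.26 (−0.18, −0.13 and −0.16 without Cre negative 1). Without Cre negative 1, 9 of the 16 regulators were lower (56.2%, near the 6996 of 13995 among all genes) and none of these was at an unadjusted p under 0.05. *Ppargc1a* was then at −0.21 and *Esrra* at −0.18, and *Pprc1* was still higher at 0.24 (unadjusted p = 0.0225 and adjusted p = 0.729 in edgeR).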

How the data were processed

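Bulk RNAseq of 3 Cre positive and 3 Cre negative left ventricles was used, with groups from the sample labels. Each gene has 3 values per ventricle from the authors: estimated count, FPKM and TPM. The estimated counts deposited are not normalized, and 11.5% are not whole. The submitters' processing notes list Bowtie2 2.2.5, RSEM 1.2.12 and GRCm38.p6. TPM is scaled by the authors to transcript length and to 1000000 per library. FPKM and the authors' DESeq2 comparison (log2 fold changes, p-values and q-values) were not used. Labels do not state that each replicate is a separate mouse. Y-linked counts set replicate 2 of each genotype apart, so the replicates of a group are not all from the same mouse. The p-values measure the spread between these samples, which may be partly technical.

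Counts were rounded and tested in edgeR 4.0.16 (R 4.3.3) by glmQLFTest after TMM scaling and filterByExpr (minimum count 10, minimum total 15), on 13817 genes, with no covariate, and with Benjamini-Hochberg adjustment over all of them at a threshold of 0.05. A gene with no count may have had up to 3 counts, or 0.202 to 0.228 per 1000000 (counting error only). In counts simulated for this comparison on 13817 genes, the test called 73 of 100 genes with a 2-fold change, 97 of 100 with a 4-fold change and 11 of 13617 with none. Pairs of subunit forms were compared by exact two-sided permutation over ventricles of log2(TPM + 0.1). Alternatives were DESeq2 1.42.0, its size factors in edgeR, no filter, limma 3.58.1 on log2(TPM + 1) and log2(TPM + 0.1) with a mean TPM of at least 1, a replicate block and each ventricle left out. Permutation tests used scipy 1.17.1 in Python 3.11.15, and figures matplotlib 3.10.9.

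The genes and lists were chosen with earlier results of these data known. Named in each complex were the core or catalytic subunits, the paired forms, the 2 genes highest in TPM, the 2 largest changes each way, the 10 smallest p-values overall and genes failing the filter. Other genes named were single examples chosen after their values were seen. Gene symbols were matched to a RefSeq table of GRCm38.p6, where all 88 were found, and positions and promoters are those of this table. The values of 1 gene are not reported here, although it is in the counts.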

Additional observations from a re-analysis of the deposited data

How the results depend on the processing

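The direction of the subunit genes held under the alternatives and their count at an unadjusted p did not. The median log2 fold change of the subunit genes stayed negative in all 12 alternatives (−0.34 with DESeq2 and −0.18 with limma on TPM). When single ventricles were left out it ranged from −0.41 to −0.16. No subunit gene had an adjusted p under 0.05 under any of them. The number at an unadjusted p under 0.05, 37 with all ventricles, ranged from 3 to 50 when single ventricles were left out. It was 3 without Cre positive 2, 10 without Cre positive 3, 12 without Cre positive 1 and 24 without Cre negative 1. It was 6 with limma on log2(TPM + 1) and 4 on log2(TPM + 0.1). On the TPM scale the median of all genes was 0.11 and 0.12, so that relative to it the subunit genes were at −0.30 and −0.31. The number of all genes called was 1, and it was 5 with DESeq2, 0 with the replicate block and 0 to 2 when single ventricles were left out (0 without Cre negative 3, Cre positive 1 or Cre positive 3).

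Replicate numbers are shared by the groups but did not pair the ventricles: deviations of ventricles with the same number correlated at 0.354, 0.0726 and −0.0318 for numbers 1, 2 and 3. With the replicate block, 57 subunit genes were at an unadjusted p under 0.05, none passed adjustment and the median was −0.31.

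Of 612 values of 51 named genes under 12 alternatives, 598 kept their sign and 14 changed it. *Ndufa4l2* was at 0.022 and 0.023 with limma on log2(TPM + 1) and log2(TPM + 0.1). With single ventricles left out, *Cox6b2* ranged from −0.57 to 0.310 (above 0 without Cre negative 1), *Cox4i2* from −0.107 to 0.058 (above 0 without Cre negative 2, Cre positive 1 or Cre positive 2, at 0.024, 0.023 and 0.058), *Cycs* from −0.508 to 0.005 (above 0 without Cre negative 1) and *Atp5e* from −0.282 to 0.295 (0.295 without Cre negative 1 and 0.145 without Cre positive 3). With limma on both TPM scales *Cox4i2* was at 0.130 and 0.134 and *Atp5e* at 0.069 and 0.070, and *Cox6b2* was at 0.003 on log2(TPM + 0.1). The difference in the log2 ratio of *Cox7a1* to *Cox7a2* ranged from −0.110 to 0.121 (0.001 without Cre negative 3 and 0.121 without Cre positive 2), and that of *Cox6b2* to *Cox6b1* from −0.222 (without Cre negative 3) to 0.398. The cause of these changes was not tested. Groups of 3 limit the precision, and the shared reads of 6 of the subunit genes limit *Ndufa13*, *Ndufb4*, *Ndufb4b*, *Ndufb4c*, *Uqcrc2* and *Cycs*.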

Other observations

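*Ucp3*, an inner membrane carrier of heart and muscle related to uncoupling proteins, had 140, 513 and 87 normalized counts in Cre negative replicates 1 to 3 and 93, 111 and 107 in Cre positive replicates 1 to 3. The high value belonged to Cre negative 2 and not to Cre negative 1, which was highest for most subunit genes. *Ucp2*, a paralog found in immune cells and many tissues, had 5824, 6791 and 5885 normalized counts without Cre and 4912, 5256 and 5086 with it (log2 fold change −0.28, SE 0.10, edgeR unadjusted p = 0.0260 and adjusted p = 0.714), and its groups did not overlap. *Cox19*, a copper-binding assembly factor of complex IV, was at 0.01 (SE 0.10) with all ventricles, where the other 46 tested assembly factors were lower with Cre, and at 0.00 without Cre negative 1, where 32 of 47 were lower. Atrial markers varied between ventricles without following genotype. *Myl7*, the atrial light chain, had 492, 306 and 61.1 TPM without Cre and 611, 18.1 and 185 TPM with it, *Myl4* had 626, 509 and 78.5 TPM without Cre and 1268, 31.9 and 183 TPM with it, and *Sln* had 189, 141 and 31.2 TPM without Cre and 318, 5.04 and 83.7 TPM with it. All 3 were highest in Cre positive 1 and lowest in Cre positive 2. *Nppa*, which injured ventricles also make, had 6895, 8877 and 8321 TPM without Cre and 14404, 6826 and 6634 TPM with it. Skeletal muscle markers were also highest in Cre positive 1 for *Myh1*, at 16.1 TPM against 0 to 0.11 TPM in the other 5 ventricles, and for *Tnnt3*, at 82.3 TPM against 11.1 to 16.0 TPM. *Cox6a2*, *Cox7a1* and *Cox8b*, which skeletal muscle also uses, were not highest in that ventricle.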
